A study of Mus musculus with 6 samples.

Results

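The CXC chemokine genes described here are Cxcl1, Cxcl2, Ppbp (also called Cxcl7) and Cxcl10, 4 of the 522 genes that carry a name among the 2859 rows of the array table. They were taken by symbol from the list of changed probe sets that the authors deposited, and each had 1 probe set. The cells were mononuclear osteoclast precursors from the bone marrow of wild-type SV129/BL6 mice, whose age is not stated for the pools put on these arrays. For 2 days the cells received sRANKL (200 ng/ml), which drives osteoclast formation, together with M-CSF (20 ng/ml), which keeps precursors alive, or, as controls, M-CSF (20 ng/ml) alone. Cells of 3 mice were pooled in each of 3 independent experiments, kept in M-CSF (10 ng/ml) for 48 hours beforehand, enriched but not pure, and split between 1 dish of each condition, so that each dish had a partner from the same pool. RNA of the 6 dishes was hybridised to Affymetrix GeneChip Mouse Gene 1.0 ST arrays. The sRANKL was purified and had been expressed from pGEX-4T-1, a vector for protein production in bacteria. No dish received that preparation without sRANKL, so the effects of sRANKL and of whatever else the preparation held cannot be told apart.

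Chemokines are small secreted proteins that guide cells along a gradient, and CXC chemokines are named for the residue that separates their first pair of conserved cysteines. Those with a glutamate-leucine-arginine (ELR) motif before the cysteines, Cxcl1, Cxcl2, Cxcl5 and Ppbp among them, attract neutrophils through the receptor Cxcr2. Cxcl10 lacks that motif, is induced by interferons and attracts T and NK cells through Cxcr3. Cells of the osteoclast lineage are known to produce chemokines, and in mouse cultures Cxcl2 and Cxcl10 have been linked to osteoclast formation.

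The authors' list holds probe sets already found to differ significantly, and at least 2-fold, between the same dishes. These genes were thus chosen by the difference between conditions on these same arrays, which is given here as a description, with no test. All 4 genes were brighter with sRANKL on every array than with M-CSF alone on any array, a pattern held by 45.2% of all rows. They were also among the rows that were at least 2-fold higher with sRANKL at an adjusted p under 0.05 in limma, a linear model with a moderated spread, which were 16.1% of all rows. Passing these limits was largely fixed by the choice of the genes, since the list used similar limits on the same arrays. Of the 776 rows past both limits 59.3% were higher with sRANKL, but 36.3% of 935 after median centring and 42.1% of 820 after quantile normalization. In each of the 3 experiments every one of them was at least 2-fold higher than in the partner dish, as were 9.41% of all rows. Named genes as a whole leaned the same way, since 65.3% of them were higher with sRANKL. All rows here are the 2859 kept from the deposited table, whose selection is not given. Of these, 2235 passed the adjusted p of 0.05 whatever the size of the change, so the shares may not stand for the whole array. Values below are RMA intensities, which are background-corrected, quantile-normalised and summarised per probe set, and fold changes are ratios of geometric means (sRANKL over M-CSF alone). Intensities of different genes cannot be set against each other, because each probe set has its own sensitivity. In bulk RNA a larger number of expressing cells and more RNA per cell cannot be told apart.

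Cxcl1 (KC), a ligand of Cxcr2, lies on chromosome 5 from 91320336 to 91322141 on the plus strand of the authors' list, which does not state its genome build. Its intensity in Experiments 1, 2 and 3 was 710.0, 1028 and 488 with sRANKL, against 265, 170.3 and 199 with M-CSF alone. The sRANKL dish of Experiment 2 was the brightest of its group while its partner was the dimmest control, and the groups did not overlap. The mean intensity was 742 ± 271 with sRANKL and 212 ± 48.8 with M-CSF alone (SD, n = 3 each). The fold change was 3.41, a log2 difference of 1.77 with a standard error of 0.30.

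Cxcl2 (MIP-2), a close relative of Cxcl1 that acts on the same receptor, lies 10783 bases further along the same strand of the list, from 91332925 to 91334964. Its intensity in Experiments 1, 2 and 3 was 1807, 3724 and 1721 with sRANKL, against 363, 419 and 223 with M-CSF alone. Here both dishes of Experiment 2 were the brightest of their groups and both dishes of Experiment 3 the dimmest. The mean intensity was 2417 ± 1132 with sRANKL and 335 ± 101 with M-CSF alone (SD, n = 3 each). The fold change was 6.99, the highest of the 4 genes, with a log2 difference of 2.81 and a standard error of 0.36. The dimmest sRANKL array was still 4.11 times as bright as the brightest control array, the widest such gap among these genes.

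The stretches before the annotated start sites of Cxcl1 and Cxcl2 are shown because both carry the same match to the NF-kB consensus. That consensus is a binding site of the NF-kB transcription factors, which RANK activates. Whether these factors act on either gene here was not tested. They are the 250 bases before each start on the plus strand, from the RefSeq table of GRCm38.p6, at chr5:90890995-90891244 for Cxcl1 and chr5:90903649-90903898 for Cxcl2, with the matches in capitals.
Cxcl1: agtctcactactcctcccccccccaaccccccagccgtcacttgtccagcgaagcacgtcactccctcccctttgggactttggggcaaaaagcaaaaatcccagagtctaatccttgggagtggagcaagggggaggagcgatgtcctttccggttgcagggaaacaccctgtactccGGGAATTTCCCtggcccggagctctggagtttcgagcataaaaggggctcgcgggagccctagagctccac
Cxcl2: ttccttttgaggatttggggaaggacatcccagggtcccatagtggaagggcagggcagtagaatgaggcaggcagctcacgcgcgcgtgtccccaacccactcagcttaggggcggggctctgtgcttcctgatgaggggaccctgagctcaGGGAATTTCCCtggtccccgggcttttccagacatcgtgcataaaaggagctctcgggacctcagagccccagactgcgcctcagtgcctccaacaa
The capitals hold 2 overlapping matches, 1 on each strand, which begin 71 and 70 bases before the start of Cxcl1 and 97 and 96 bases before that of Cxcl2. They are part of the longest run that these windows share, GGGAATTTCCCTGG, of 14 bases. The other pairs of windows among the 4 genes share no run longer than 10 bases.

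Ppbp, pro-platelet basic protein, is stored in platelet granules and is processed to a neutrophil-attracting ligand of Cxcr2. It lies from 91197544 to 91199089 on the plus strand of chromosome 5 in the list, 121246 bases before Cxcl1. Its intensity in Experiments 1, 2 and 3 was 3795, 2979.9 and 3031 with sRANKL, against 1082, 554 and 826 with M-CSF alone. The sRANKL arrays lay close together and the controls spread more widely, with Experiment 1 brightest and Experiment 2 dimmest in both conditions. The mean intensity was 3269 ± 456 with sRANKL and 821 ± 264 with M-CSF alone (SD, n = 3 each). The fold change was 4.11, a log2 difference of 2.04 with a standard error of 0.26. The 250 bases before its start, at chr5:90768268-90768517 of GRCm38.p6 on the plus strand, are shown for comparison with those of Cxcl1 and Cxcl2.
Ppbp: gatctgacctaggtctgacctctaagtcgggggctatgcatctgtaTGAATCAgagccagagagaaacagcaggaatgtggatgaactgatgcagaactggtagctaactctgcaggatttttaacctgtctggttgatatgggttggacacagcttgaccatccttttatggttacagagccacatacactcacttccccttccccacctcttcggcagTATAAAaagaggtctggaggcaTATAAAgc
The capitals mark 1 match to the AP-1 site TGANTCA and 2 matches to the TATA box TATAAA, and no match to the NF-kB consensus was in this window.

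Cxcl10 (IP-10), the ligand of Cxcr3, lies apart from the others at 92775664 to 92777905 on the minus strand of chromosome 5, 1440699 bases beyond Cxcl2. Its intensity in Experiments 1, 2 and 3 was 864, 719 and 981 with sRANKL, against 342, 297 and 271 with M-CSF alone. Arrays of a condition lay closer together than for Cxcl1 or Cxcl2, and Experiment 3 held both the brightest sRANKL array and the dimmest control. The mean intensity was 855 ± 131 with sRANKL and 303 ± 35.6 with M-CSF alone (SD, n = 3 each). The fold change was 2.81, the lowest of the 4 genes, with a log2 difference of 1.49 and a standard error of 0.17. Its upstream window, chr5:92348890-92349139 of GRCm38.p6 printed along the minus strand, is shown because it holds matches of 3 kinds.
Cxcl10: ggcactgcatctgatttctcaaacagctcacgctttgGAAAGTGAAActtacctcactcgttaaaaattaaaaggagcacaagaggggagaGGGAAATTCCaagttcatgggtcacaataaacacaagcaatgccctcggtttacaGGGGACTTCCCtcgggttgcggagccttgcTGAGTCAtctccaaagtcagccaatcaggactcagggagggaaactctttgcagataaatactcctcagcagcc
From left to right the capitals mark a match to the interferon response element, a pair of GAAA half-sites 2 bases apart, 1 match to the NF-kB consensus, 2 overlapping matches to the same consensus, and 1 AP-1 match.

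**Figure D1:**
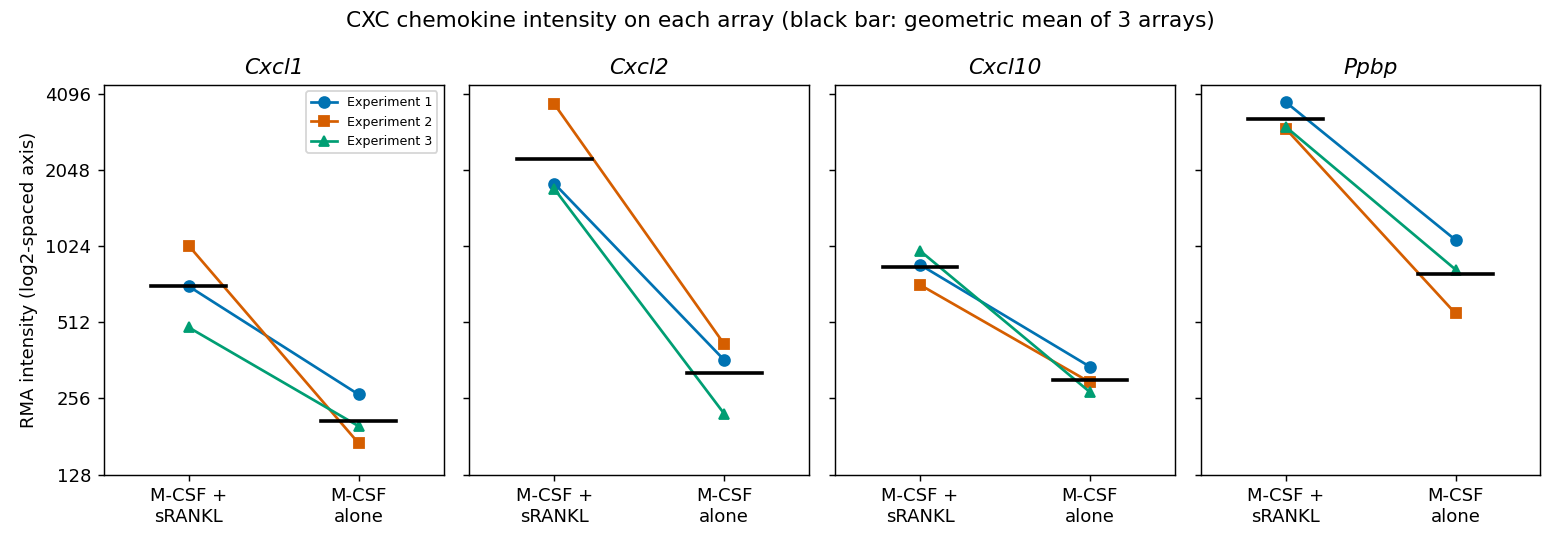
RMA intensity of each gene on the 6 arrays (vertical axis in log2 steps), with M-CSF + sRANKL on the left and M-CSF alone on the right of each panel. Lines join partner dishes of an experiment, black bars are geometric means of 3 arrays, and in no panel do the conditions overlap.

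Matches of this kind are common to different degrees. The NF-kB consensus, searched on both strands, was in 7.25% of the 32851 RefSeq windows of the same length, the interferon response element in 2.98%, the AP-1 site in 6.75% and the TATA box, searched on the gene's strand only, in 7.59%. The NFAT core GGAAA, a shorter motif searched on both strands that overlaps the NF-kB matches of Cxcl1, Cxcl2 and Cxcl10, was in 55.6% of windows and is not marked above. It was in the windows of those 3 genes and not in that of Ppbp. Of the 15 CXC chemokines listed for comparison, 11 had a window, and 4 of these held the NF-kB consensus, namely Cxcl1, Cxcl2, Cxcl3 and Cxcl10. The interferon response element was in Cxcl10 and Cxcl14. A match is a string of letters and not a measured binding site.

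**Figure D2:**
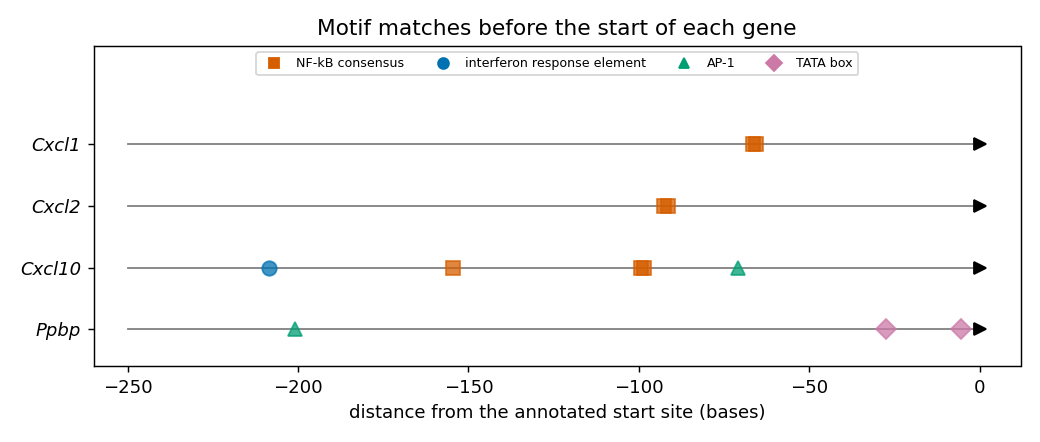
Matches to 4 motifs in the 250 bases before each start site (horizontal axis, distance from the start in bases; arrowheads mark the start). Cxcl1 and Cxcl2 hold only NF-kB matches, Cxcl10 holds NF-kB, interferon response element and AP-1 matches, and Ppbp holds AP-1 and TATA box matches.

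The size of the difference varied among the experiments, and not in the same way for each gene. Within partner dishes Cxcl1 was 2.68-fold higher with sRANKL in Experiment 1, 6.03-fold in Experiment 2 and 2.46-fold in Experiment 3. Cxcl2 was 4.98-fold, 8.88-fold and 7.74-fold higher in Experiments 1, 2 and 3. For both genes Experiment 2 gave the largest difference. Ppbp was 3.51-fold, 5.38-fold and 3.67-fold higher, again with Experiment 2 in front, although both of its dishes were the dimmest of their groups. Cxcl10 was 2.53-fold, 2.43-fold and 3.62-fold higher, with Experiment 2 last. With 1 dish per condition in an experiment, a difference between experiments could not be tested. Experiment 2 gave the largest difference for 41.3% of the 341 named genes that were higher with sRANKL.

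The standard deviation of the 3 within-experiment log2 differences was 0.72 for Cxcl1, 0.44 for Cxcl2, 0.34 for Ppbp and 0.32 for Cxcl10. Over all rows its median was 0.22, and its quartiles 0.14 and 0.33. Cxcl1 therefore varied more between experiments than most rows, and 95.0% of the named genes that were higher with sRANKL had a smaller value. Without Experiment 2 the fold change of Cxcl1 was 2.56. Fitting the experiment as a block lowered the standard error of the log2 difference to 0.18 for Cxcl2 and 0.16 for Ppbp, whose partner dishes kept the same order in both conditions. The change was smaller for Cxcl1, at 0.24, and for Cxcl10, at 0.16, whose partner dishes did not keep the same order.

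**Figure D3:**
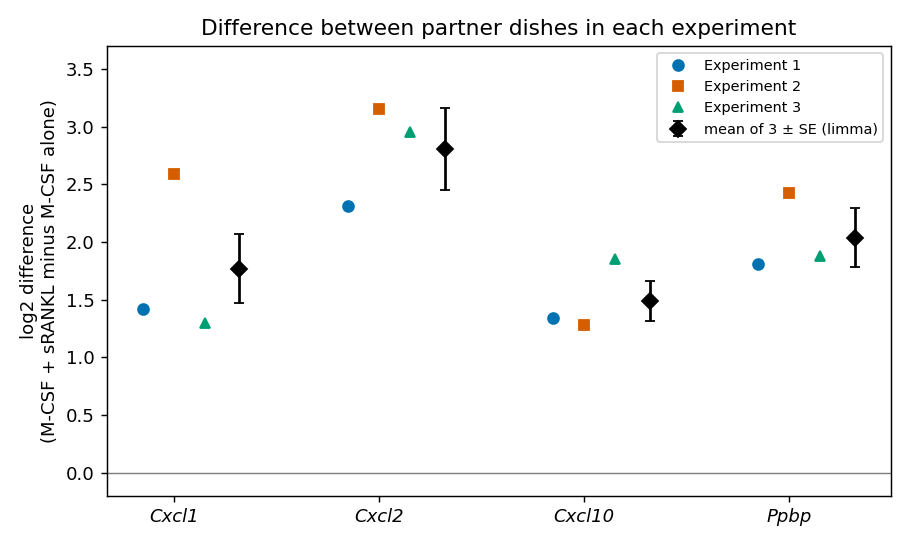
Log2 difference between partner dishes (M-CSF + sRANKL minus M-CSF alone) for each gene in each experiment. Diamonds are the mean of 3 with the standard error of the limma fit without a block, which does not use the pairing. Cxcl1 is spread from 1.30 to 2.59, and Cxcl10 from 1.28 to 1.85.

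By fold change Cxcl2 stood at rank 36, Ppbp at rank 67, Cxcl1 at rank 93 and Cxcl10 at rank 144 of the 522 named genes, counted from the most increased. The lowest named increase was that of Nfkbia at 2.003-fold, and the row nearest below 2-fold that is not on the list was at 1.9998-fold. The list also required significance, and it does not hold every row above 2-fold. Outside it 100 rows were at least 2-fold higher with sRANKL, up to 36.2-fold, and what kept them out was not examined. The lowest of the 4 genes, Cxcl10, stood at 2.81-fold, and at 2.40-fold after quantile normalization. The median log2 difference was 0.42 over all rows and 1.39 over the named genes that were higher with sRANKL, against 1.49 to 2.81 for these 4.

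**Figure D4:**
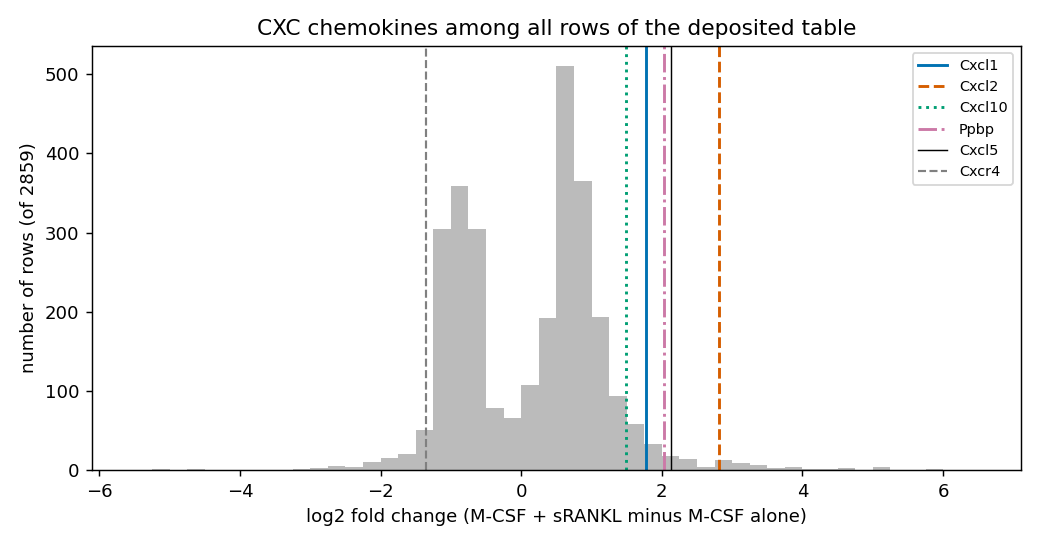
Log2 fold change (M-CSF + sRANKL minus M-CSF alone) of all 2859 rows as a histogram (vertical axis, number of rows), with lines at Cxcl1, Cxcl2, Cxcl10, Ppbp, Cxcl5 and Cxcr4. The chemokines lie between 1.49 and 2.81 and the receptor Cxcr4 at -1.36.

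Of the 15 listed CXC chemokines 5 are named in the tables, and these include the 4 genes above. All 5 were higher with sRANKL, as were 65.3% of all named genes. They are named because they differed, so this says nothing of the unnamed ones. The fifth was Cxcl5 (LIX), another ELR chemokine, whose intensity in Experiments 1, 2 and 3 was 291, 207 and 193 with sRANKL, against 83.6, 36.2 and 46.3 with M-CSF alone. The fold change of Cxcl5 was 4.36, and as with Ppbp its brightest array in each condition was that of Experiment 1. Cxcl5, Ppbp, Cxcl1 and Cxcl2 lie within 146640 bases of chromosome 5 in the authors' list and are the 4 named genes in that span. In the RefSeq order of GRCm38.p6 the genes Pf4, Cxcl3 and Cxcl15 lie between Ppbp and Cxcl1, and their expression was not analysed here. On chromosome 5 as a whole, 25 of 38 named genes were higher with sRANKL. Genes of this cluster resemble each other in sequence, and a probe set of 1 may pick up RNA of another.

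Of the 10 listed CXC chemokine receptors only Cxcr4 is named, and it was lower with sRANKL. Cxcr4, the receptor for Cxcl12 that holds precursor cells in bone marrow, had intensities of 1393, 1310.2 and 1504 with sRANKL in Experiments 1, 2 and 3, against 3582, 3010.2 and 4299 with M-CSF alone. Its level with sRANKL was thus 0.390 of that with M-CSF alone. Cxcr2 and Cxcr3, the receptors of the 4 chemokines, were not analysed here.

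Genes around the chemokines were counted in the same way, each as the named members of a list. Of 23 listed genes for cytokines that induce CXC chemokines, their receptors and antagonists, 5 are named, all higher with sRANKL, with Il1a (interleukin-1 alpha) at 10.1-fold, Il1rn, the interleukin-1 receptor antagonist, at 8.13-fold and Il6 at 7.90-fold. The value of Il1a was 15.7-fold with the Experiment 1 control array left out. Of 24 listed genes of the NF-kB pathway 4 are named, all higher, with Traf1, an adaptor of TNF receptors, at 5.26-fold, Tnfaip3, the inhibitor A20, at 2.62-fold and Nfkbiz at 2.37-fold. Of 41 listed interferon-induced genes 11 are named, all higher, with the nucleic acid sensor Zbp1 at 3.95-fold, the deconjugating protease Usp18 at 3.45-fold and the antiviral gene Oasl1 at 3.33-fold. Of 21 listed genes of Toll-like receptor signalling only Irak3, an inhibitor of that pathway, is named, at 2.45-fold. No listed factor of chemokine mRNA decay is named. These counts come from genes named because they differed, of which 65.3% were higher, and they say nothing of the unnamed members.
Of 21 listed chemokines of other subfamilies 7 are named, all CC chemokines. They were higher with sRANKL in 6 cases, led by Ccl12 at 61.5-fold, Ccl7 at 24.9-fold and Ccl5 at 10.2-fold, and lower for Ccl24, with 0.430 of its level in M-CSF alone. For Ccl12 the experiments differed widely, at 15.9-fold, 94.5-fold and 155-fold in Experiments 1, 2 and 3. The intensity of Ccl12 was 3663, 4515 and 3831 with sRANKL, against 230, 47.8 and 24.8 with M-CSF alone. Controls as dim as the last 2 make the folds of Ccl12 less certain. Its fold change was 116 with the Experiment 1 control array left out and 38.0 with that of Experiment 3 left out.

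The genes whose log2 intensities followed each chemokine most closely over the 6 arrays were found among the 521 other named genes by Pearson's r, given as a description because the arrays share the 2 conditions. For Cxcl1 these were Vnn3, a vanin, H2-M2, a class I-like molecule, and Il4i1, an amino acid oxidase, with r of 0.995, 0.993 and 0.992. Vnn3 also showed its largest within-experiment difference in Experiment 2, at 7.22-fold. For Cxcl2 they were Pilrb2, Bst1 and Irf7, the interferon regulatory factor, with r of 0.998, 0.995 and 0.993. For Ppbp they were Ly6i, Pdpn (podoplanin) and Sdc4 (syndecan 4), with r of 0.997, 0.997 and 0.996, and Cxcl5 followed at rank 4 with r of 0.992. For Cxcl10 they included Egln3 and Slco3a1, each with r of 0.992. Pairs of these chemokines, which were not picked for likeness, had r between 0.868 for Cxcl1 and Cxcl10 and 0.957 for Ppbp and Cxcl10. Among the 521 genes ranked for each, their places ran from 77 (Cxcl10 for Ppbp) to 318 (Ppbp for Cxcl2).

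Markers of other cell types can be followed only as far as they are named. Among 28 neutrophil and granulocyte precursor markers, 8 have a name in the tables and were higher with sRANKL. Their summed intensity, which is weighted to the brightest probe sets, was 7599 to 11941 with sRANKL, against 1780.2 to 2845 with M-CSF alone. The largest changes were those of Cstdc5 at 16.7-fold, Stfa2l1 at 9.27-fold and Stfa1 at 7.79-fold, all stefins. The rest were Ms4a3 at 4.55-fold, Ctsg at 4.26-fold, Prtn3 at 3.27-fold, Stfa2 at 2.915-fold and Mpo at 2.49-fold. Ctsg, Prtn3, Mpo and Ms4a3 were the brightest of these markers with sRANKL and weigh most in the sum. Cstdc5 was 5.72-fold, 22.4-fold and 36.0-fold higher in Experiments 1, 2 and 3, and 25.9-fold higher with the Experiment 1 control array left out. Its controls had intensities of 165, 53.3 and 36.3 in Experiments 1, 2 and 3, and the dim ones make its folds less certain. Of 20 listed megakaryocyte and platelet markers, Itgb3 at 2.06-fold and Gng11 at 2.01-fold are named beside Ppbp, Itgb3 being an osteoclast marker too, and their summed intensity was 400.3 to 524 with sRANKL and 205 to 269 with M-CSF alone. Platelet markers such as Pf4 and Itga2b are not among the named genes. Of 12 listed stromal and endothelial markers Dcn and Pecam1 were higher, at 2.66-fold and 2.75-fold, and of 10 erythroid markers Tfrc was higher at 4.44-fold. No listed B cell, T and NK cell, or mast cell marker is named. The part of these cells in the chemokine values was not tested. Of 20 osteoclast markers 8 are named, all higher, led by Mmp9 at 15.8-fold, Acp5 at 11.0-fold and Ctsk at 8.98-fold, while Apoe and Ccr2, the only named ones of 18 monocyte and macrophage markers, were lower, with 0.106 and 0.490 of their level in M-CSF alone. The labelled cell type could not be checked further, because its other markers are not named.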

How the data were processed

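RNA of 6 dishes was hybridised to Affymetrix Mouse Gene 1.0 ST arrays. According to the submitters' processing notes the scans were processed with RMA in R 2.71, and the authors deposited linear intensity values for 2890 probe sets, whose selection is not given in the sources used here. The authors' deposited list of 656 probe sets supplied symbols and positions, and its fold changes and p-values, the authors' own comparison, were not used. Symbols were updated by Entrez number against RefSeq (GRCm38.p6), and where a named gene had several probe sets the brightest by mean log2 stood for it, which left 2859 rows. Precision is limited by there being 3 arrays per group.

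Log2 intensities were fitted with limma 3.58.1 in R 4.3.3 (lmFit and eBayes, no block), and p-values of all rows were adjusted together by Benjamini and Hochberg's method, with 0.05 as the limit. The code was tested on simulated data. Other steps used Python 3.11.15, numpy 2.4.6, pandas 2.3.3 and matplotlib 3.10.9. Samples were taken as paired by experiment because partner dishes shared 1 cell pool, and in Experiments 1, 2 and 3 the deviations of partner dishes from their group means had correlations of 0.605, 0.564 and 0.645. Motifs were searched in the 250 bases before RefSeq start sites, on both strands apart from the TATA box.

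The genes and lists were chosen with earlier results of these data known. Named are the 4 chemokines, the other named CXC chemokines and receptors, up to 3 genes of each list with the largest change, and the 3 named genes most alike to each chemokine, of which 1 is not reported here. Nfkbia, H2-Eb1, Ciita, the within-experiment differences of Vnn3, Ccl12 and Cstdc5 and the genes compared by experiment in the closing section were singled out after their values were seen. For neutrophil and granulocyte precursor markers every named gene is given. Alternatives were the experiment as a fixed or random block, Student's t-test as the methods name it, a mean log2 intensity of at least 7 or 8, median centring, limma-trend, quantile normalization, all probe sets, and leaving out arrays or experiments.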

Additional observations from a re-analysis of the deposited data

How the results depend on the processing

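All 4 chemokines stayed higher with sRANKL under every alternative run for them. When an array or an experiment was left out, the log2 difference was 1.36 to 2.04 for Cxcl1, 2.45 to 3.05 for Cxcl2, 1.31 to 1.61 for Cxcl10 and 1.78 to 2.26 for Ppbp. Median centring lowered every log2 difference by 0.15. Quantile normalization lowered the median row by 0.15 and gave Cxcl10 a log2 difference of 1.27 (fold change 2.40), a shift larger than its spread between replicates, and the cause was not tested. The other 3 each shifted by less than their own spread between replicates. Of the 4 genes Ppbp shifted most, to a log2 difference of 1.77 (fold change 3.41), but its spread was wider than that of Cxcl10. With the experiment as a replicate block 2613 rows passed the adjusted p of 0.05 against 2235 without it, and 461 against 460 were at least 2-fold higher, while the folds of the 4 genes are the same by construction. Leaving out an array gave 1864 to 2348 changed rows (1015 to 1385 of them higher), 713 to 999 changed at least 2-fold (408 to 589 higher) and 2261 to 2439 rows without overlap between conditions, against 2224 with all arrays. A mean log2 intensity of at least 8 left fewer rows to test, and 1372 changed, 442 of them at least 2-fold, of which 278 were higher. Rows at least 2-fold lower with sRANKL numbered 316 as reported, 596 after median centring and 475 after quantile normalization, against 460, 339 and 345 higher, so that both scalings turned the balance. Both scalings were applied to the 2859 kept rows alone, whose values were already quantile-normalised. Since 2235 of these rows changed, the balance under a scaling may not stand for the whole array. Under the other alternatives each count of changed rows, of those higher and of rows without overlap stayed within 1.5 times its value as reported. Averaging several probe sets of a gene was not run, since each chemokine has 1. The direction of the 4 genes was fixed by how they were chosen, so its stability is not evidence.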

Other observations

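Several inflammatory genes shared the pattern of Cxcl1 across the experiments and others did not. Ccl5 (RANTES) was 7.30-fold, 20.8-fold and 6.99-fold higher with sRANKL in Experiments 1, 2 and 3, and Il6 was 5.91-fold, 14.4-fold and 5.81-fold higher. Both thus had their largest difference in Experiment 2, as Cxcl1 and Cxcl2 did and as 41.3% of the 341 named higher genes did. The controls of Il6 were dim, with intensities of 32.3, 18.4 and 13.2 in Experiments 1, 2 and 3, which makes its folds less certain. Ccl2, a ligand of Ccr2, was 10.5-fold, 6.07-fold and 11.7-fold higher, and Tnf was 3.94-fold, 3.04-fold and 3.76-fold higher, with Experiment 2 the smallest for both. These genes were picked after their values were seen, and with 1 dish per condition in an experiment the differences were not tested.

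The M-CSF alone dish of Experiment 1 was the brightest control for Ppbp, Cxcl1, Cxcl10 and Cxcl5 but not for Cxcl2. Without that array the fold change was 4.80 for Ppbp, 3.85 for Cxcl1, 2.99 for Cxcl10, 5.53 for Cxcl5 and 7.41 for Cxcl2. For Il1a the same dish had an intensity of 87.3 against 23.5 and 22.7 in the controls of Experiments 2 and 3. Among the 341 named genes that were higher with sRANKL, 40.8% had their brightest control in Experiment 1 and 50.4% in Experiment 2.

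Of 14 listed dendritic cell markers 5 are named, of which 4 were lower and 1 higher with sRANKL. Cd209a and Clec10a, C-type lectins, were at 0.147 and 0.164 of the M-CSF alone level. H2-Eb1, a class II chain, and Ciita, the class II transactivator, were at 0.415 and 0.459 of it. Ccr7, the receptor that guides dendritic cells to lymph nodes, was the one that was higher, 5.25-fold with sRANKL.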
